A study of Homo sapiens with 12 samples.

Results

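The metallothioneins and 2 genes of the zinc response that regulate or act beside them were examined across 3 human lung adenocarcinoma cell lines and 4 transfections. The genes were taken by name: every non-control probe that the scanner output assigned to MT1A, MT1E, MT1F, MT1G, MT1H, MT1M, MT1X, MT2A, MTF1 or SLC30A1. These 10 genes, of 36337 gene names on the array, were read by 13 of its 50599 probes, and MT1E, MT1H and MT1X had more than 1 probe.

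Metallothioneins are small cysteine-rich proteins that bind zinc, copper and cadmium. When free zinc rises, the zinc-finger transcription factor MTF1 binds short metal response elements upstream of the metallothionein genes and of SLC30A1, which encodes the zinc exporter ZnT1 of the plasma membrane. The human MT1 and MT2 genes lie side by side on chromosome 16 and are so alike that their transcripts are hard to tell apart, and metallothioneins have long been studied in connection with resistance to cisplatin.

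RNA came from A549 cells, from PC14 cells and from PC14CDDP cells, whose name joins PC14 to CDDP, an abbreviation of cisplatin. The sources used here do not say how PC14CDDP was made, and all 3 lines were kept in the same medium with no drug named. Each line was transfected at 25 nM with 1 of 4 agents: pre-miR-197, which adds the microRNA miR-197, its control NC (AllStar-NC in the labels), LNA-miR-197, a locked nucleic acid inhibitor of miR-197, or its control LNA-NC (LNA-miR-NC). The 12 one-dye expression arrays thus held 1 array for each transfection of each line, and 100 ng of RNA was labelled for each. The study used these arrays to look for transcripts that respond to miR-197. The 4 arrays of a line are transfected cultures of that 1 line, so their spread measures the cultures and not other lines of the same kind. The labels state neither the time between transfection and harvest nor the arm of miR-197, and miR-197 itself was not measured here. All A549 arrays lay on 1 slide and all PC14 and PC14CDDP arrays on the other, so any difference from A549 cannot be told apart from a slide difference. Each transfection held the same column of the slide in every line, and position and transfection cannot be told apart either.

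Levels are given on the log2 scale as the processed signal divided by the array's own 75th percentile, so 1 unit is a 2-fold step within a probe, and levels of different probes are not compared. On an array 55.8% to 63.0% of probes exceeded background clearly by the scanner software's flag (well above background), the lowest signal well above background was 7.61 to 13.1 signal units, and no spot was saturated. Differences were tested with limma over the 33712 probes that were well above background on at least 3 arrays, and a difference was called at an adjusted p under 0.05. Of the 13 member probes, 11 entered that test, and on all 12 arrays 9 were well above background. The line labels were set against marker genes. All 6 epithelial markers were called lower in both PC14 lines than in A549, where 34.6% of all tested probes were in PC14 and 35.0% in PC14CDDP. KRT7 fell by 6.10 ± 0.08 (SE) in PC14, and CDH1 was well above background on 4 A549, 2 PC14 and 0 PC14CDDP arrays. Of 5 lung lineage markers, 3 could be tested. NKX2-1 was well above background on all 8 arrays of the PC14 lines and on 0 of the A549 arrays, whereas NAPSA fell by 1.61 ± 0.20 (SE) in PC14. Of 10 markers of blood, endothelial and fibroblast cells, 8 were tested. In PC14 against A549, 2 of them were called higher and 3 lower, where 32.8% and 34.6% of all tested probes were. The defining fibroblast genes DCN and LUM were well above background on 0 arrays.

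The probes set what could be measured. The first probe of MT1A read chr16:56673205-56673808 of hg19 on the + strand, a stretch longer than its 60 bases, and the files also list it under MT1M. One MT1H probe read chr16:56704448-56704833, again longer than 60 bases, and 1 MT1X probe read chr16:56717082-56717141 and is listed under MT1B too. Each of the 3 holds an open reading frame rich in cysteine codons, 8 of 20 codons for MT1A, 8 of 19 for MT1H and 7 of 20 for MT1X. Their sequences are shown because a reader can see from them how little sequence sets these genes apart. Capitals mark the 13 bases common to all 3, and the MT1H probe shared an unbroken run of 27 bases with the MT1A probe and of 26 bases with the MT1X probe.
MT1A: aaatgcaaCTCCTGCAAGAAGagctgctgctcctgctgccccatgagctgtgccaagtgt
MT1H: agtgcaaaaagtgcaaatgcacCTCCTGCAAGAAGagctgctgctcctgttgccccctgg
MT1X: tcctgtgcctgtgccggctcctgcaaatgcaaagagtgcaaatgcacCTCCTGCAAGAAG

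These 3 will be called the coding probes. The other member probes held no such cysteine-rich frame. The second MT1H probe lay downstream (3′) at chr16:56704902-56704961, and the second MT1X probe downstream at chr16:56717962-56718021, each listed under its own gene alone. The first MT1E probe, at chr16:56660853-56660912, was listed under MT1E alone. The second, at chr16:56660883-56660942, was listed under MT1E, MT1M and the pseudogene MT1JP, and shared a run of 28 bases with the first. Single probes read MT1F at chr16:56693077-56693136, MT1G at chr16:56700693-56700752 on the - strand, MT1M at chr16:56667810-56667869, MT2A at chr16:56643332-56643391, MTF1 at chr1:38275414-38275473 on the - strand and SLC30A1 at chr1:211748842-211748901 on the - strand.

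Upstream sequence of 5 members was given by RefSeq (GRCh38.p14). It is printed for the 3 metallothioneins among them, whose first probes were higher in the PC14 lines below, for MT1H the coding probe alone. It is also printed for SLC30A1, which went the other way. Each run is the 250 bases before the annotated start, 5′ to 3′ on the strand of the gene. Capitals mark the core of the metal response element, searched as TGCACNC and TGCGCNC on both strands. MT2A is at chr16:56608334-56608583, MT1H at chr16:56669564-56669813 and MT1X at chr16:56682220-56682469, all on the + strand, and SLC30A1 at chr1:211579162-211579411 on the - strand.
MT2A: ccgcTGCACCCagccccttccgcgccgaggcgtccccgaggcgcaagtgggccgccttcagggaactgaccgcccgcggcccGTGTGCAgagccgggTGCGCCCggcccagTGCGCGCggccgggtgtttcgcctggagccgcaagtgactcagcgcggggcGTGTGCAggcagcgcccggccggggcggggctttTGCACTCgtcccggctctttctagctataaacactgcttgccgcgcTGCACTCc
MT1H: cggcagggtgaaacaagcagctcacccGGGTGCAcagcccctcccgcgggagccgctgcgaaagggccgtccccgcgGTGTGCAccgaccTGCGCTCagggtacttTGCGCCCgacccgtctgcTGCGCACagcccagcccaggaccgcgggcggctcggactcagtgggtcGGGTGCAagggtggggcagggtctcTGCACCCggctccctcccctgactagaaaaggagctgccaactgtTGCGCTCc
MT1X: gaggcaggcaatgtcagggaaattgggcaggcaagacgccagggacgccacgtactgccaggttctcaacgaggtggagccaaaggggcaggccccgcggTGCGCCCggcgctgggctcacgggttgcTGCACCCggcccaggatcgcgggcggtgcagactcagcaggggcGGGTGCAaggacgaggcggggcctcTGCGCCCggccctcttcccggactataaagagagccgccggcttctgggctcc
SLC30A1: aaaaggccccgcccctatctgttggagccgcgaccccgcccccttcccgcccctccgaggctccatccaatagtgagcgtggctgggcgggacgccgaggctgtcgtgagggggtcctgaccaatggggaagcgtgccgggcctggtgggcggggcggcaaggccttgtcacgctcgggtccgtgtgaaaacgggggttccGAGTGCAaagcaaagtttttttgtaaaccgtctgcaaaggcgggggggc

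MT1H held 8 core matches, MT2A 7, MT1X 4 and SLC30A1 1, and the window of MTF1 held 0. At least 1 match was present in 24.8% of the 35116 promoter windows of this length, at least 4 in 0.370%, at least 7 in 0.0313% and at least 8 in 0.0171%. MT1B, a paralog described below, held 3, a count reached by 1.58% of windows. A match is a stretch of letters and not a measured binding site.

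**Figure D1:**
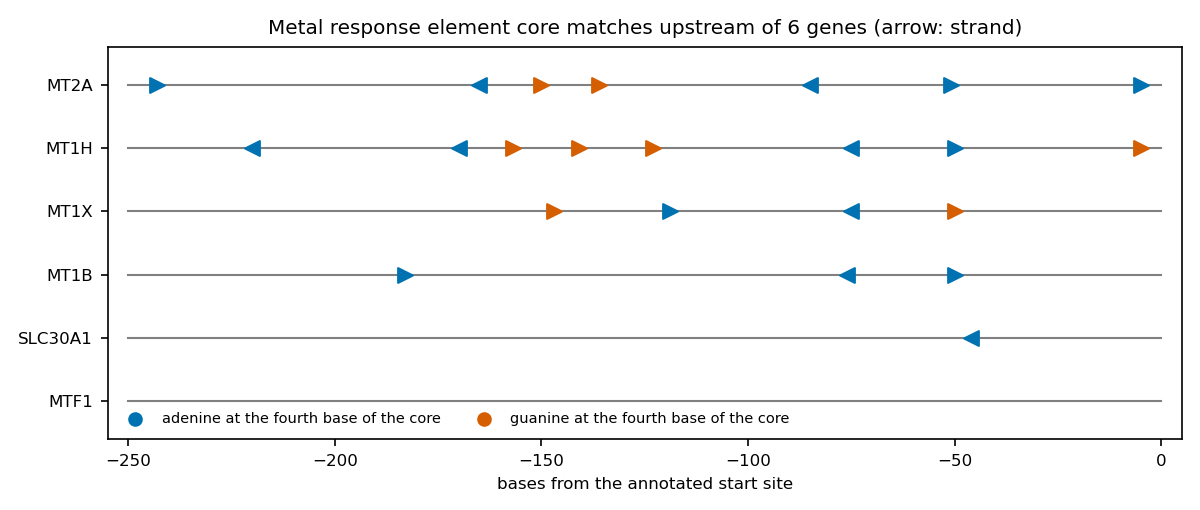
Matches to the metal response element core in the 250 bases upstream of 6 genes, plotted by distance in bases from the annotated start site. Arrows give the strand of the match and colours the fourth base of the core, adenine or guanine. The rows of MT2A (7 matches) and MT1H (8) are the fullest, and that of MTF1 is empty.

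In most tested metallothionein probes the PC14 lines differed from A549, which lay on the other slide, by more than the transfections differed from their controls. Between PC14CDDP and PC14, on the same slide, differences of the tested members ran from -0.73 to 0.60. In the metallothionein probes well above background on all arrays, these still exceeded the fitted transfection differences. The first MT1E probe gave -0.69 against -0.34 for LNA-miR-197, and MT2A gave -0.39 against -0.25. How far these line differences rest on 1 array is described below. For MT1F and MT1G, dim in both PC14 lines, LNA-NC against NC gave the larger values, -0.73 and -0.93 against 0.60 and 0.11. The coding probes, MT2A and the first MT1E probe were higher in PC14 and in PC14CDDP than in A549, by 1.29 to 2.35 on the log2 scale. MT1F, the second MT1E probe and the exporter SLC30A1 went the other way. In PC14 against A549, 7 of the 11 tested member probes were called higher and 3 lower, where 32.8% and 34.6% of all tested probes were. In PC14CDDP against A549, 7 were called higher and 3 lower, where 35.0% of all tested probes were called in each direction. Among the lower probes of each comparison was MT1F, which passed the filter through A549 alone and had to differ. Among the other 10 tested member probes, 7 were called higher and 2 lower in either comparison. The call rate is high over the whole array, so the sizes below say more than the counts. The share of all tested probes whose arrays do not overlap between lines is not given here. Statements below on overlap between lines are therefore descriptions only.

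MT2A, the most widely expressed metallothionein, stood at 7.28, 7.01, 6.96 and 6.73 in A549 after NC, pre-miR-197, LNA-NC and LNA-miR-197, the order used throughout. Its levels were 9.11, 9.19, 9.26 and 9.27 in PC14. In PC14CDDP they were 9.01, 8.90, 8.94 and 8.41. Every array of either PC14 line thus lay above every A549 array. The difference was 2.22 ± 0.13 (SE) in PC14, a 4.65-fold higher signal (adjusted p = 1.85e-06), and 1.82 ± 0.13 (SE) in PC14CDDP (adjusted p = 4.68e-06).

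The MT1A probe read 5.68, 5.64, 5.28 and 5.20 in A549. In PC14 it read 6.94, 7.24, 7.30 and 7.61, and in PC14CDDP 6.90, 6.96, 6.95 and 6.15. Again no array of the PC14 lines overlapped with A549. It was 3.55-fold higher in PC14 (log2 1.83 ± 0.22 (SE), adjusted p = 0.000129) and 2.44-fold higher in PC14CDDP (adjusted p = 0.00091). The files list this probe under MT1M as well, and the share of each gene in the signal was not tested.

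MT1H read 4.46, 4.19, 3.75 and 3.83 in A549 with the coding probe. The PC14 values were 6.08, 6.45, 6.32 and 6.76, and those of PC14CDDP 6.0, 6.04, 5.99 and 4.96. The groups did not overlap, and the difference was 2.35 ± 0.27 (SE) in PC14 (5.09-fold, adjusted p = 9.37e-05) and 1.69 ± 0.27 (SE) in PC14CDDP (adjusted p = 0.000588). The downstream MT1H probe, in contrast, was well above background on 0 of 12 arrays, so the 2 probes of this gene disagree on whether it was detected.

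MT1X was measured on all arrays by both of its probes. The coding probe gave 4.55, 4.38, 4.04 and 4.06 in A549, 6.12, 6.45, 6.46 and 6.86 in PC14 and 6.02, 6.19, 6.13 and 5.13 in PC14CDDP. It was 4.65-fold higher in PC14 (2.22 ± 0.26 (SE), adjusted p = 0.000106) and 3.05-fold higher in PC14CDDP (adjusted p = 0.000635). The downstream probe, which is listed under MT1X alone, gave 1.59, 1.32, 0.98 and 1.33 in A549, 2.80, 2.25, 2.64 and 2.39 in PC14 and 2.19, 1.38, 2.08 and 1.49 in PC14CDDP. With it PC14 was above A549 on every array, while PC14CDDP overlapped with A549. The differences were smaller, 1.21 ± 0.16 (SE) in PC14 (adjusted p = 0.000224) and 0.48 ± 0.16 (SE) in PC14CDDP (adjusted p = 0.0271). The 95% interval of the downstream probe in PC14, 0.84 to 1.59, ended below that of the coding probe, 1.61 to 2.82, and the difference between the probes was not tested. The call of the downstream probe in PC14CDDP was lost after quantile normalization (adjusted p = 0.0788), without the NC arrays (adjusted p = 0.117), without the LNA-NC arrays (adjusted p = 0.112), with no term for the transfection (adjusted p = 0.066), with only the arrays compared (adjusted p = 0.089) and by the methods' t-test (adjusted p = 0.184).

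MT1E gave opposite directions with its 2 probes, of which the second was faint. The first read 3.73, 3.60, 3.34 and 3.21 in A549, 5.43, 5.75, 5.83 and 6.01 in PC14 and 5.31, 5.42, 5.31 and 4.24 in PC14CDDP, and was 4.86-fold higher in PC14 than in A549 (2.28 ± 0.25 (SE), adjusted p = 6.51e-05). The second read -2.88, -2.76, -2.69 and -2.81 in A549, -3.93, -4.07, -4.65 and -4.14 in PC14 and -4.60, -4.06, -4.80 and -4.58 in PC14CDDP. No array overlapped between A549 and the PC14 lines with either probe. The second probe was 2.66-fold lower in PC14 (adjusted p = 8.82e-05) and 3.31-fold lower in PC14CDDP (adjusted p = 2.26e-05) than in A549. After normexp background correction these differences of the second MT1E probe shrank to -0.55 and -0.56, still called. Over the 12 arrays the 2 probes had a Pearson correlation of -0.809, although they share 28 bases.

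MT1F was well above background in A549 alone. It read 1.38, 0.02, 0.04 and 0.36 there and was not well above background on any of the 8 arrays of the PC14 lines, where its measured means were -7.51 in PC14 and -6.91 in PC14CDDP. Against the lowest signal that counted as well above background, the A549 mean of 0.45 ± 0.64 (SD, n = 4) was at least 70.2-fold higher than PC14 and at least 52.3-fold higher than PC14CDDP. The probe had entered the test through the A549 arrays, and a difference was bound to follow from that, so its p is left out. After normexp background correction the fitted MT1F differences were -3.57 in PC14 and -3.47 in PC14CDDP, smaller than these bounds, so the bounds hold for the processed signal only.

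MT1G and MT1M were close to background. MT1G was well above background on 2 A549 arrays, 1 PC14 array and 0 PC14CDDP arrays, with line means of -5.58, -5.77 and -5.65. Neither PC14 line was called different from A549 for MT1G (adjusted p = 0.618 for PC14 and 0.849 for PC14CDDP). MT1M, read by its particular probe, was well above background on 1 A549 array only and was not tested.

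**Figure D2:**
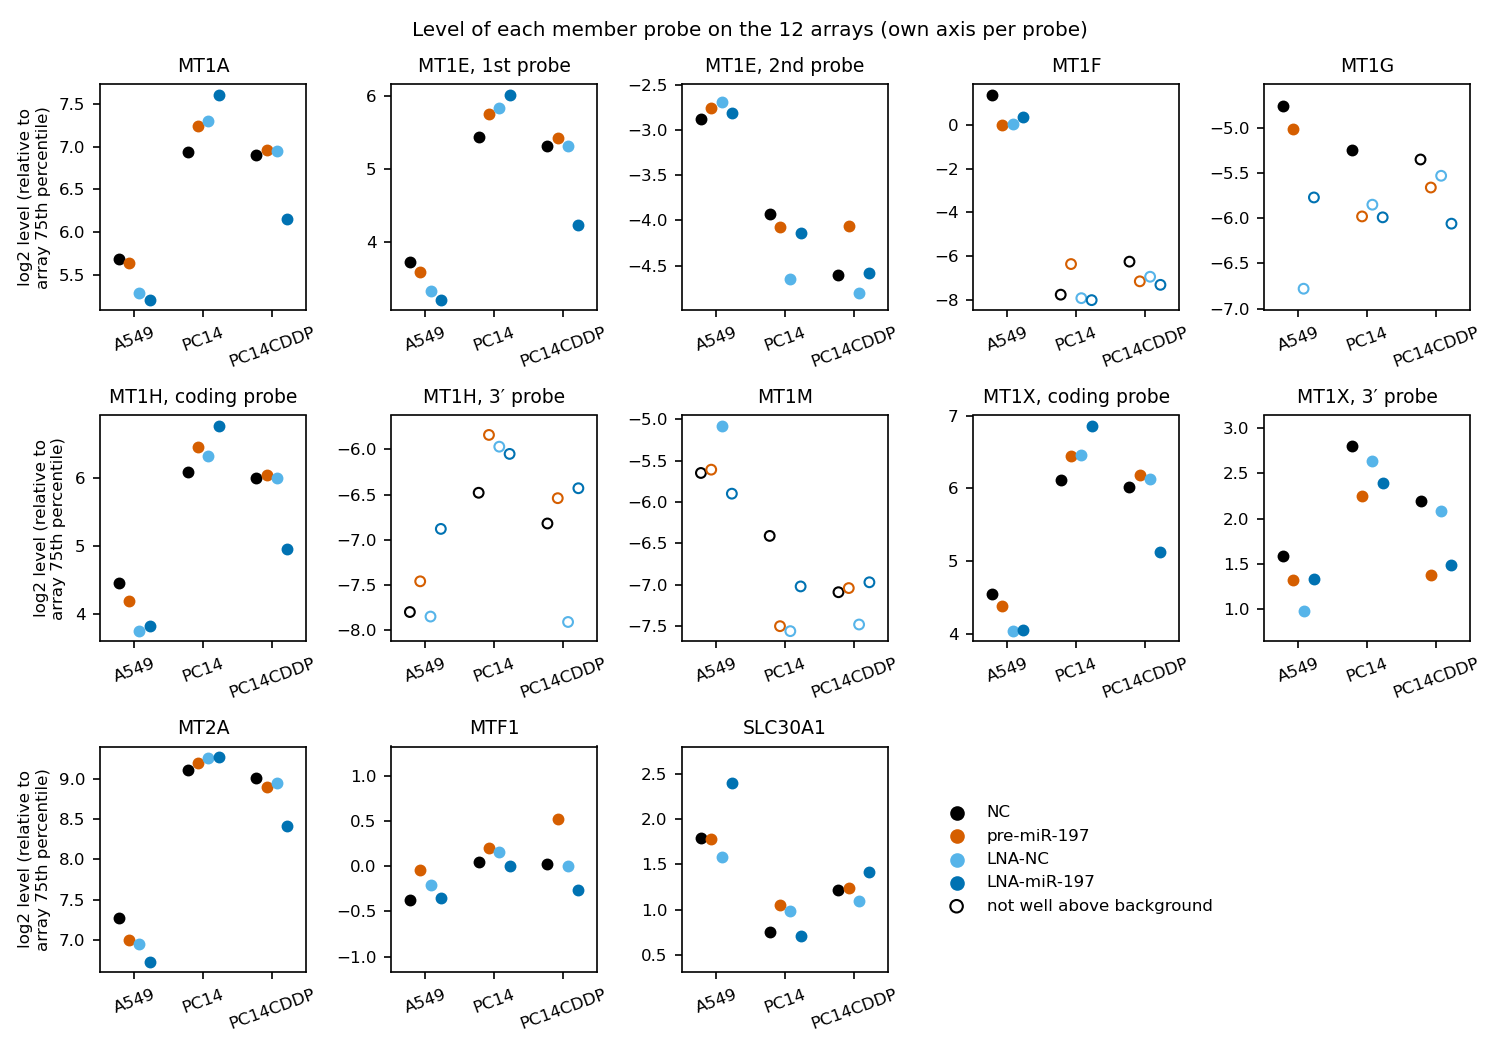
Log2 level of each member probe on the 12 arrays, scaled to each array's 75th percentile, by line and with the transfection as colour. Each probe has its own axis, 1 point is 1 array and open points were not well above background. MT2A lies between 6.73 and 7.28 in A549 and between 9.11 and 9.27 in PC14, while MT1F is above background in A549 alone.

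MTF1, the transcription factor of the metal response, differed little between lines. Its levels were -0.37, -0.04, -0.21 and -0.35 in A549, 0.05, 0.20, 0.16 and 0.00 in PC14 and 0.03, 0.52, 0.00 and -0.26 in PC14CDDP. PC14 lay above A549 on all arrays, and PC14CDDP overlapped with it. MTF1 was 1.27-fold higher in PC14 (0.35 ± 0.11 (SE), adjusted p = 0.0185) and 1.25-fold higher in PC14CDDP (0.32 ± 0.11 (SE), adjusted p = 0.0264). Both calls were lost without the NC arrays (adjusted p = 0.0956 and 0.124), without the LNA-NC arrays (adjusted p = 0.0728 and 0.0614) and, with no term for the transfection, at adjusted p = 0.0772 and 0.100. The call in PC14CDDP was also lost without the pre-miR-197 arrays (adjusted p = 0.0864), with no filter on dim probes (adjusted p = 0.0507), with only the arrays compared (adjusted p = 0.0735) and by the methods' t-test (adjusted p = 0.0871).

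SLC30A1, the exporter, was lower in both PC14 lines, as were MT1F and the second MT1E probe, while the coding probes and MT2A were higher. It read 1.79, 1.78, 1.58 and 2.40 in A549, 0.75, 1.05, 0.98 and 0.71 in PC14 and 1.22, 1.24, 1.10 and 1.42 in PC14CDDP. All A549 arrays were above all arrays of the PC14 lines, and the PC14CDDP arrays were all above those of PC14. It was 2.02-fold lower in PC14 than in A549 (-1.01 ± 0.16 (SE), adjusted p = 0.000651) and 1.56-fold lower in PC14CDDP (-0.64 ± 0.16 (SE), adjusted p = 0.00724). Between PC14CDDP and PC14 the difference of 0.37 ± 0.16 (SE) did not pass the threshold (adjusted p = 0.095).

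PC14CDDP had less metallothionein RNA than PC14 in some probes. Both lines were on the same slide, PC14 in row 1 and PC14CDDP in row 2, so row and line cannot be told apart. In this comparison 0 of 11 tested member probes were called higher and 3 lower, where 26.0% and 22.8% of all tested probes were, so the share of members called lower was near that of the array. The median difference was -0.39 over the tested members and 0.06 over all tested probes. The downstream MT1X probe fell by 0.73 ± 0.16 (SE), 1.66-fold (adjusted p = 0.00607). For it, MT2A, the MT1H coding probe and the first MT1E probe, all PC14CDDP arrays lay below all PC14 arrays. The gaps were narrow for MT1H, 6.04 against 6.08, and for MT1E, 5.42 against 5.43. The first MT1E probe fell by 0.69 ± 0.25 (SE) (adjusted p = 0.0498) and MT2A by 0.39 ± 0.13 (SE) (adjusted p = 0.0368). The coding probes gave -0.54 ± 0.22 (SE) for MT1A (adjusted p = 0.0787), -0.66 ± 0.27 (SE) for MT1H (adjusted p = 0.0786) and -0.61 ± 0.26 (SE) for MT1X (adjusted p = 0.089), none called.

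These values rest in large part on 1 array. After LNA-miR-197 in PC14CDDP, MT1A, MT1E, MT1H, the MT1X coding probe and MT2A all read below the other 3 arrays of the line, for example 4.96 for MT1H against 5.99 to 6.04. Without that array MT2A gave -0.29 ± 0.13 (SE) (adjusted p = 0.105), the first MT1E probe -0.41 ± 0.19 (SE) (adjusted p = 0.114) and MT1H -0.37 ± 0.22 (SE) (adjusted p = 0.214), so that 1 member probe stayed called. That probe was the downstream MT1X probe, at -0.65 ± 0.18 (SE) (adjusted p = 0.022). Its adjusted p was between 0.00131 and 0.0332 over all alternatives run, while for MT2A it ranged from 0.00845 to 0.157. The called members numbered 1 without the LNA-NC arrays of all lines and 2 without the pre-miR-197 arrays of all lines. The PC14CDDP array after LNA-miR-197 also had the lowest 75th percentile of the 12, 406 signal units against up to 477, and the lowest share of probes well above background, 55.8%. The part of these in the result was not tested.

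**Figure D3:**
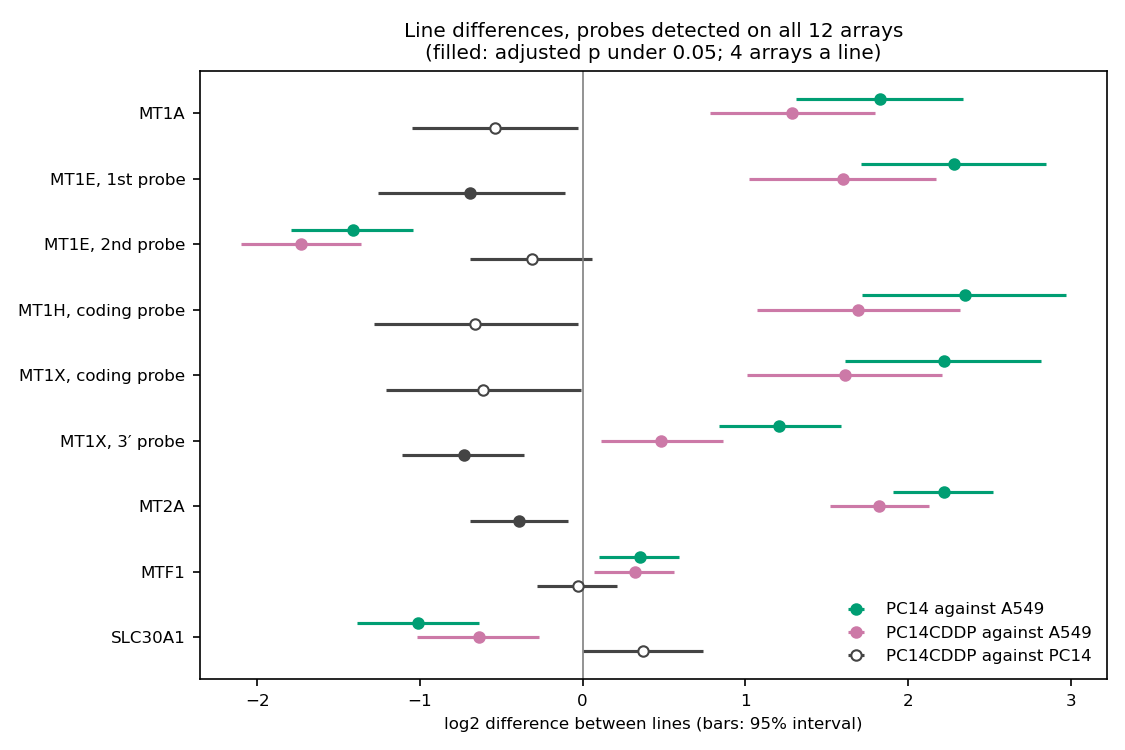
Log2 difference between lines for the 9 member probes well above background on all 12 arrays, with 95% intervals from limma. Filled points passed the threshold. The coding probes, MT2A and the first MT1E probe lie to the right of 0 against A549, with MT2A at 2.22 in PC14, and the second MT1E probe (-1.41) and SLC30A1 (-1.01) to the left.

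The transfections moved no member past the threshold. After pre-miR-197 against NC, 0 of 11 tested member probes were called in either direction, where 0.0119% of all tested probes were called higher and 0.0475% lower. For LNA-miR-197 against LNA-NC the members called were again 0 of 11, where 4.27% were called higher and 3.63% lower. The 2 controls, LNA-NC against NC, gave 0 of 11 with 0.332% higher and 0.142% lower. The difference between the LNA-miR-197 and pre-miR-197 effects gave 0 of 11 with 0.0326% higher and 0.0148% lower. At an unadjusted p under 0.05 in limma, 2, 0, 1 and 1 member probes passed in these 4 comparisons, where 15.5%, 27.4%, 13.6% and 18.2% of all tested probes did, and the methods' t-test with Benjamini-Hochberg adjustment gave 0 member probes in each. The comparisons share control arrays and are not independent of one another.

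The intervals show what could have been missed. For MT2A the difference was -0.10 after pre-miR-197, with a 95% interval from -0.45 to 0.25, and -0.25 after LNA-miR-197, from -0.60 to 0.10. For the coding probes the intervals were wider, as for MT1H after pre-miR-197, from -0.67 to 0.77, and after LNA-miR-197, from -0.89 to 0.56. Changes of up to about these sizes in either direction are within the data. Over the 11 tested probes the differences ran from -0.54 to 0.32 after pre-miR-197 and from -0.34 to 0.29 after LNA-miR-197.

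Of the 9 member probes measured on every array, 2 had 1 sign in every line after pre-miR-197 without passing the threshold. The share of all tested probes with 1 sign in the 3 lines is not given here, so this count is a description only. The downstream MT1X probe gave log2 ratios of -0.26, -0.55 and -0.81 in A549, PC14 and PC14CDDP. Their mean was -0.54 ± 0.27 (SD, n = 3 lines), and the limma test gave an adjusted p of 0.236. The coding probe of MT1X, which is listed under MT1B too, gave -0.18, 0.33 and 0.17 in the same lines, so the fall was not seen with it. MTF1 gave 0.32, 0.16 and 0.49 after pre-miR-197 (adjusted p = 0.264). Under LNA-miR-197 it gave -0.14, -0.16 and -0.25 (adjusted p = 0.374). The difference between these effects on MTF1 was -0.51 ± 0.17 (SE) (adjusted p = 0.188).

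In several probes the lines went apart after LNA-miR-197. MT1A ratios were -0.08 for A549, 0.32 for PC14 and -0.80 for PC14CDDP. MT1H gave 0.08, 0.44 and -1.02, and the first MT1E probe -0.13, 0.18 and -1.06. MT2A gave -0.23, 0.01 and -0.53. In each case PC14CDDP stood lowest, which is the same low array as above. SLC30A1 had another order, with 0.82 in A549, -0.27 in PC14 and 0.32 in PC14CDDP (mean 0.29 ± 0.54 (SD, n = 3 lines), adjusted p = 0.36 in limma).

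**Figure D4:**
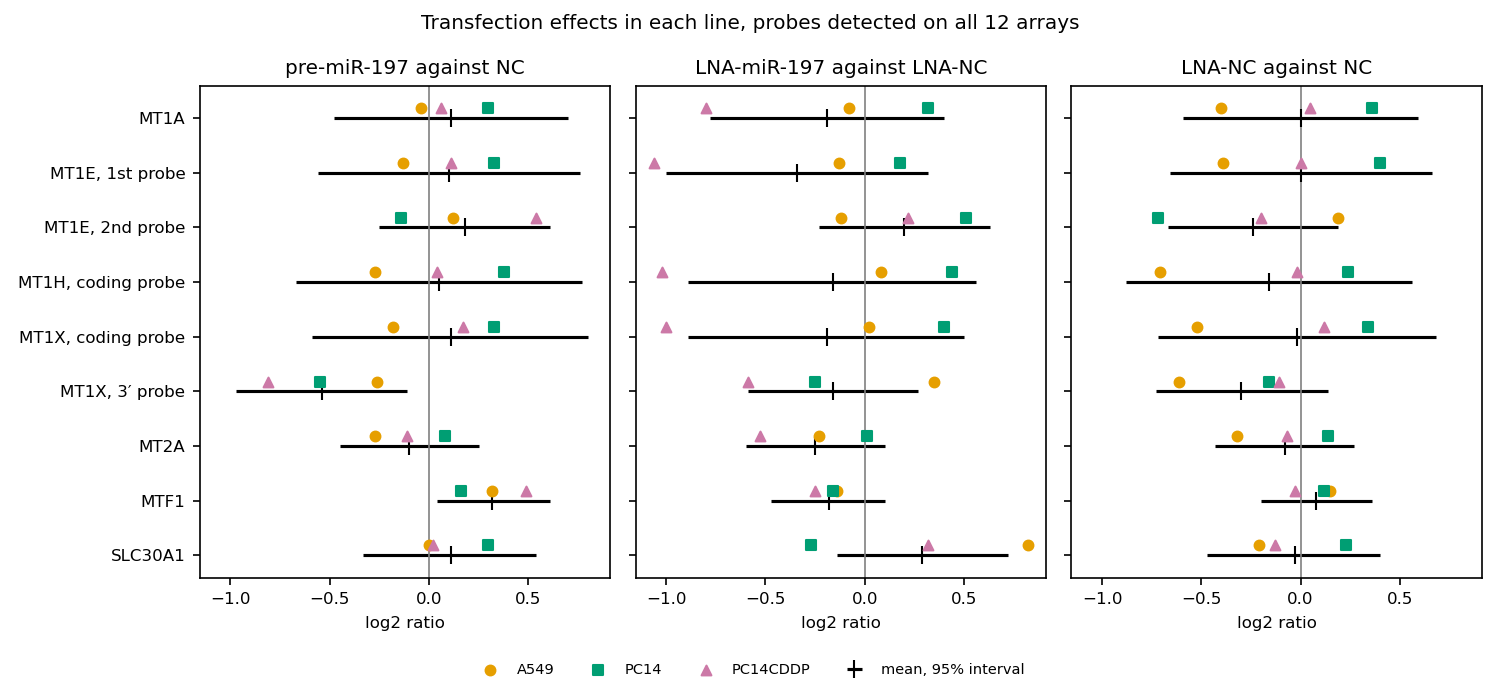
Log2 ratio of each transfection to its control in every line for the 9 member probes well above background on all 12 arrays, with the mean and its 95% interval from limma in black. No mean passed the threshold in any of the 3 comparisons. After LNA-miR-197 the PC14CDDP points of MT1A, MT1E, MT1H and the MT1X coding probe lie between -1.06 and -0.80, left of the other lines.

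The close paralogs were read by 10 further probes, of which 8 could be tested. MT1L and MT1B followed the coding probes, with MT1L 5.54-fold (2.47 ± 0.26 (SE), adjusted p = 5.42e-05) and MT1B 5.33-fold higher in PC14 than in A549 (2.41 ± 0.25 (SE), adjusted p = 5.22e-05). The pseudogene probe for metallothionein 1C rose by 1.75 ± 0.30 (SE) in the same comparison (adjusted p = 0.000893). The MT1L probe shared a run of 19 bases with the first MT1E probe and the MT1B probe a run of 17, and these probes had Pearson correlations of 0.998 and 0.997 with it over the 12 arrays. MT1DP, a pseudogene, resembled MT1F: it read -2.27, -2.87, -2.74 and -2.62 in A549 and stayed near background on all arrays of the PC14 lines. By the processed signal it was at least 8.35-fold higher in A549 than in PC14 and at least 6.22-fold higher than in PC14CDDP. It too entered the test through A549, so its p is left out. MT3, a metallothionein known from brain, was lower in PC14 by -0.90 ± 0.09 (SE) (adjusted p = 5.14e-05), higher in PC14CDDP than in PC14 by 0.29 ± 0.09 (SE) (adjusted p = 0.0321), and MT1IP was lower in PC14 by -0.65 ± 0.16 (SE) (adjusted p = 0.0065). Pseudogene 3, on chromosome 20, differed by -0.60 ± 0.15 (SE) between PC14CDDP and PC14 (adjusted p = 0.0102), and MT4, known from squamous epithelia, was well above background on 1 array. A further MT1E transcript probe, well above background on 3 arrays, was not called in PC14 against A549 (-0.41 ± 0.40 (SE), adjusted p = 0.391), and a probe for the 1D pseudogene was well above background on 0 arrays. In PC14 against A549, 3 of the 8 were called higher and 3 lower, where 32.8% and 34.6% of all tested probes were. In PC14CDDP against A549, 3 were called higher and 4 lower, where 35.0% of all tested probes were called in each direction. MT1DP was 1 of the lower in both. In the transfection comparisons 0 of the 8 paralog probes were called, and 1, 1, 1 and 0 passed an unadjusted p under 0.05 in limma, again against 15.5%, 27.4%, 13.6% and 18.2% of all tested probes.

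**Figure D5:**
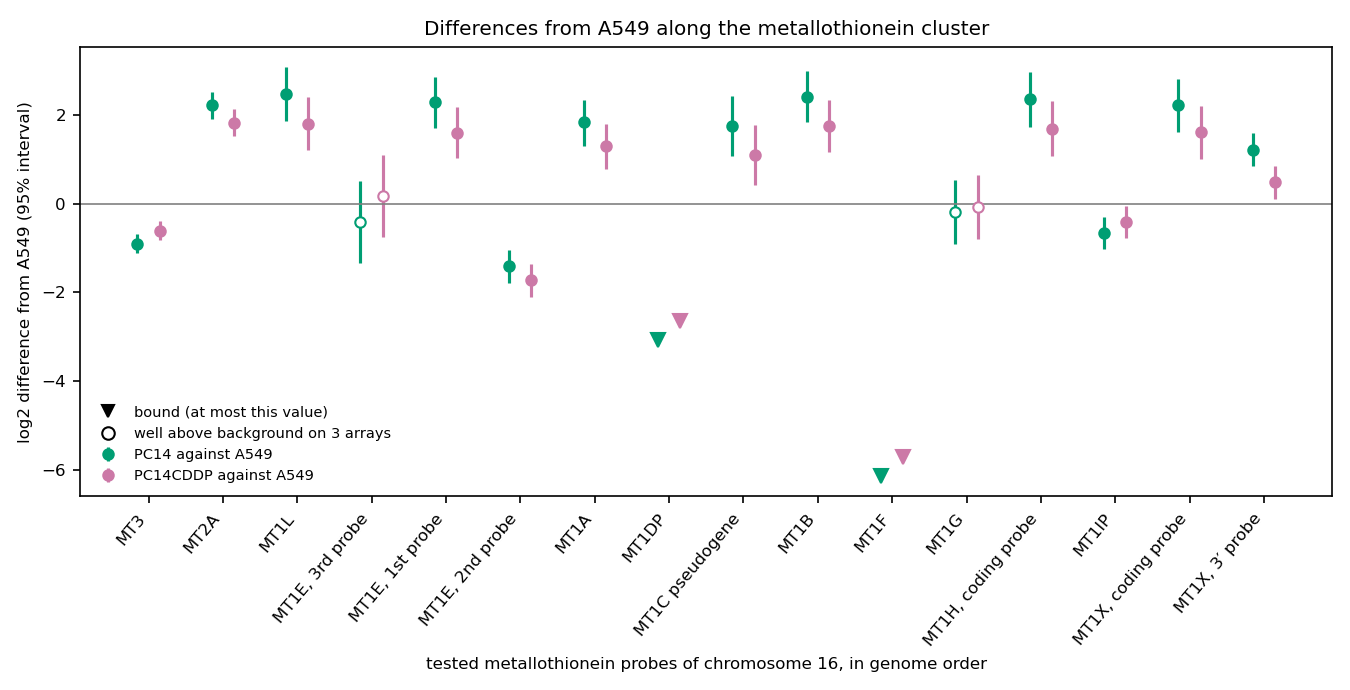
Log2 difference of PC14 and PC14CDDP from A549 for the tested metallothionein probes of chromosome 16, in genome order and not to scale, with 95% intervals from limma. Triangles are bounds for MT1F and MT1DP, and open points, MT1G and a further MT1E probe, were well above background on 3 arrays. Higher and lower probes are mixed along the cluster, with MT1A at 1.83 and the 1C pseudogene at 1.75 in PC14 on either side of the MT1DP bound.

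The neighbouring genes of the cluster were taken as a list. Of 7 tested neighbours, 4 were called higher and 0 lower in PC14 than in A549, where 32.8% and 34.6% of all tested probes were. Among the higher were NUDT21, a pre-mRNA cleavage factor, by 1.11 ± 0.08 (SE) (adjusted p = 5.95e-06), and NUP93, a nuclear pore protein, by 0.67 ± 0.09 (SE) (adjusted p = 0.000179). GNAO1, a G protein subunit and also among the higher, was not well above background on any A549 array and was at least 56.1-fold higher in PC14 by the processed signal. Its passing the filter through the PC14 lines alone required that difference, so its p is left out. In PC14CDDP against A549, 3 were called higher and 1 lower, where 35.0% of all tested probes were called in each direction. In PC14CDDP against PC14, 0 were called higher and 3 lower, where 26.0% and 22.8% of all tested probes were. NUDT21 was the 1 neighbour called higher with LNA-miR-197, at 0.48 ± 0.09 (SE) (adjusted p = 0.028), where 4.27% of all tested probes were.

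Zinc transporters were taken as 2 lists. Of 7 tested exporters and vesicle loaders of the SLC30 family besides SLC30A1, 4 were called higher and 1 lower in PC14 than in A549. Of all tested probes 32.8% and 34.6% were. SLC30A7, a transporter of the Golgi, rose by 1.55 ± 0.10 (SE) (adjusted p = 3.02e-06), SLC30A4, which loads zinc into vesicles, rose by 1.48 ± 0.28 (SE) (adjusted p = 0.00167) and SLC30A6 fell by 1.11 ± 0.10 (SE) (adjusted p = 1.98e-05). In PC14CDDP against PC14, 0 were called higher and 3 lower, where 26.0% and 22.8% of all tested probes were. SLC30A4 was among the lower, by -1.98 ± 0.28 (SE) (adjusted p = 0.000577). After LNA-miR-197, 1 was called higher, SLC30A5, at 0.73 ± 0.14 (SE) (adjusted p = 0.0274), where 4.27% of all tested probes were.

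All 14 importers of the SLC39 family could be tested. In PC14 against A549, 3 were called higher and 2 lower, where 32.8% and 34.6% of all tested probes were. SLC39A3 was up by 1.78 ± 0.13 (SE) (adjusted p = 7.41e-06), SLC39A4, an intestinal zinc importer, by 1.13 ± 0.11 (SE) (adjusted p = 3.22e-05) and SLC39A7 by 1.04 ± 0.12 (SE) (adjusted p = 8.3e-05). SLC39A8, a carrier of zinc, manganese and cadmium, was at -0.94 ± 0.13 (SE) (adjusted p = 0.000296). In PC14CDDP against PC14, 3 were called higher and 4 lower, where 26.0% and 22.8% of all tested probes were, and SLC39A8 rose by 1.25 ± 0.13 (SE) (adjusted p = 0.000132). After LNA-miR-197 against LNA-NC, 2 were called higher and 1 lower, where 4.27% and 3.63% of all tested probes were. These were SLC39A9 at 1.02 ± 0.17 (SE) (adjusted p = 0.0215), SLC39A6 at 0.95 ± 0.18 (SE) (adjusted p = 0.0259) and SLC39A11 at -1.13 ± 0.14 (SE) (adjusted p = 0.0139). After pre-miR-197, 0 importers and 0 exporters were called.

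Among 7 genes of the heavy-metal and oxidative stress response, 1 was called higher and 3 lower in PC14 than in A549. Of all tested probes 32.8% and 34.6% were. HMOX1, heme oxygenase, rose by 0.79 ± 0.22 (SE) (adjusted p = 0.0125), while SLC7A11, the cystine carrier, fell by 1.66 ± 0.35 (SE) (adjusted p = 0.00278) and GCLM, of glutathione synthesis, fell by 0.74 ± 0.09 (SE) (adjusted p = 0.000162). In PC14CDDP against PC14, 0 were called higher and 2 lower, where 26.0% and 22.8% of all tested probes were. The lower were HMOX1 at -1.29 ± 0.22 (SE) (adjusted p = 0.00161) and GCLC at -1.05 ± 0.17 (SE) (adjusted p = 0.00126). In the transfection comparisons 0 of the 7 were called. HMOX1, named here after its values were seen, gave 2.05 ± 0.26 (SE) for pre-miR-197 against NC, 4.13-fold, and missed the threshold (adjusted p = 0.054).

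The metallothionein probes moved together from array to array. For the first probes of MT1A, MT1E, MT1H, MT1X and MT2A, the 10 pairwise Pearson correlations over the 12 arrays lay between 0.973 and 0.998. After removal of each line's mean they lay between 0.856 and 0.987, and they describe probes that share arrays, extraction and, for some pairs, up to 27 bases. MT2A shared no run over 5 bases with the others. The downstream MT1X probe had correlations of 0.809 to 0.824 with these probes, and of 0.229 to 0.451 within lines.

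Of 24842 genes outside the family, CDCP1, a membrane glycoprotein, was most like the mean of these 5 probes over the 12 arrays (Pearson r = 0.987), followed by PLAU, the urokinase plasminogen activator (0.982), RECQL4 (0.981), ITGA6, an integrin subunit (0.977), and TSPAN5 (0.977). With line means removed, the 5 closest included LOC440028 (0.922), PLAU (0.902), CLMN (0.902) and MGLL (0.900). These correlations over 12 arrays of 3 lines are descriptions.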

How the data were processed

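Total RNA of 12 transfected cultures was measured on one-dye arrays, 1 array for each transfection of each line. Per the file headers, the arrays were scanned and read with Agilent Feature Extraction 10.7.3.1, and probe positions are those of hg19. The authors deposited an intensity for each spot: mean, local background and a processed signal, to which the scanner software had applied its spatial and multiplicative detrending, with flags. A normalization between arrays is not given in the sources used here.

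Control spots and outlier spots were left out, replicate spots were averaged, and each processed signal was divided by its array's 75th percentile over all non-control probes before log2 was taken. Probes missing on any array (106 of 50599) were left out, and 33712 well above background on at least 3 arrays were fitted with limma 3.58.1 in R 4.3.3, with transfection and line as terms over all 12 arrays and Benjamini-Hochberg adjustment across all of them. The line number pairs the transfections: after removal of transfection means, arrays of 1 line correlated at 0.845 to 0.947 over probes. In arrays simulated for pre-miR-197 against NC over 33712 probes, 166 of 200 changes of 2 on the log2 scale and 100 of 200 changes of 1 were recovered, with 15 and 11 false calls.

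The members and the lists of transporters, stress genes, neighbours, paralogs and markers were chosen with earlier results of these data known. All members and all their probes are named. Where 1 probe stood for a gene it was the one with the highest mean signal, and from a list at most 4 of the called genes with the largest change are named. Genes of like pattern are the 5 outside the family with the highest Pearson correlation with the mean of the metallothionein members whose first probe was well above background on all arrays. A bound compares the mean of the brighter line with, per array of the dimmer line, whichever is higher, its signal there or the lowest one well above background. All 10 member names matched the RefSeq table, 5 had an upstream sequence there, and no probe bore the name of 7 of the listed genes. The alternatives were another normalization, background correction, filter, prior or test, fewer arrays, and no term for line or transfection. The number of arrays limits the precision. There were 0 columns of other samples. Some genes that these rules would name are not reported here.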

Additional observations from a re-analysis of the deposited data

Results flagged for a closer look

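Of 22 groups of 4 arrays looked at, 1 for the first probe of each gene in each line whose 4 arrays were all well above background, a single array stood apart in 4, where chance marks about 1 in 20 groups. All 4 were the PC14CDDP array after LNA-miR-197. Its gap to the nearest of the other arrays, as a share of the whole range of the line, was 0.921 for MT1A, 0.906 for the first MT1E probe, 0.947 for the MT1H coding probe and 0.837 for the MT1X coding probe, all past the critical value for 4 arrays. These 4 probes correlate closely and share bases, so they are not 4 separate signs.

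In 8 of 21 gene-comparison pairs, lines moved in opposite directions by at least 1.2-fold each way, and the difference was not tested. After LNA-miR-197 against LNA-NC the log2 gap between the highest and the lowest line was 1.12 for MT1A, 1.46 for MT1H, 1.40 for MT1X and 1.09 for SLC30A1. Between the controls, LNA-NC against NC, it was 0.75 for MT1A, 0.80 for MT1E and 0.86 for MT1X, with A549 lowest and PC14 highest in each. After pre-miR-197 it was 0.65 for MT1H.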

How the results depend on the processing

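Member probes called in PC14CDDP against PC14, 3 in the design used, numbered 5 after normexp background correction, 5 with only probes well above background on all arrays, 6 with a trended robust prior, 1 with 1 probe a gene, 1 by the methods' t-test after Benjamini-Hochberg adjustment, 1 with only the arrays compared and 1 without the PC14CDDP LNA-miR-197 array, an alternative chosen after seeing the data. Leaving out 1 transfection at a time gave 1 to 3. With no replicate block, so without the pairing of arrays by line or transfection, 2 were called there, 9 in PC14 against A549, 8 in PC14CDDP against A549 and 0 in each transfection comparison. The causes were not tested. Against A549, 8 to 12 member probes were called in PC14 and 8 to 10 in PC14CDDP, and all settings run called 0 members in the transfection comparisons. The called line differences of member probes kept their sign in all settings run, while uncalled transfection differences did not all do so: that of the first MT1E probe after LNA-miR-197 went from -0.34 to 0.03 without the PC14CDDP LNA-miR-197 array. The alternatives were fitted over probes of the whole array, but their values for paralogs and listed genes are not given here. Over all probes the calls after pre-miR-197 ranged from 0 to 653 around 20, and after LNA-miR-197 from 0 to 4579 around 2662. The LNA-miR-197 calls numbered 207 without the PC14CDDP LNA-miR-197 array and 0 with only the arrays compared. The calls of NUDT21, SLC30A5, SLC39A6, SLC39A9 and SLC39A11 after LNA-miR-197 are given for the main design. With only the arrays compared they were thus lost. Their results under the alternatives that called more probes are not given here. Signal near background limits MT1G, MT1M, the downstream MT1H probe and, in the PC14 lines, MT1F and the second MT1E probe. Each transfection value is limited by 1 array per transfection and line.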
